A study of Danio rerio with 12 samples.

Results

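The genes described here encode cartilage matrix proteins that are not collagens. They were chosen by zebrafish gene name, with earlier results of these data known. All 10 names were found among the 25902 rows of the count table: the matrilins *matn1*, *matn3a*, *matn3b* and *matn4*, the aggrecans *acana* and *acanb*, and *epyc*, *snorc*, *cnmd* and *ucmab*. *cnmd* is listed by the study under its older name *lect1*. *ucmab* was matched to the row ENSDARG00000005485, whose name in the Ensembl table, UCMA, drops the paralog letter.

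Poly-A RNA was sequenced from whole zebrafish embryos that were harvested at 48 h post-fertilization (hpf). The 4 groups had 3 libraries each: *apc* mutants given 100 nM rapamycin (an inhibitor of mTORC1), WT given 100 nM rapamycin, *apc* mutants given vehicle (0.1% DMSO) and WT given vehicle. Treatment began at 24 hpf. The mutants were homozygous for *apc*-mcr, a truncating allele of *apc*, and the group called WT here mixes wild-type embryos with heterozygous siblings, because embryos were sorted by body shape at 24 hpf. By the sample labels a replicate pooled 20 embryos, so no value belongs to a single animal. The methods of the study state 3 independent clutches.

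Cartilage is built from collagen fibrils and a hydrated gel of proteoglycans. Aggrecan carries chondroitin sulfate chains and binds hyaluronan with the help of link proteins, and matrilins are adaptor proteins that connect collagen fibrils with proteoglycans. Small leucine-rich proteoglycans sit on the fibrils. In zebrafish the first cartilages of the head form from neural crest cells in the pharyngeal arches, and matrix genes of this kind are switched on while these cells condense and differentiate.

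Levels are given in CPM, counts per 1000000 of a library's total after TMM scaling over the 12 libraries. They are comparable between libraries and not between genes, since gene length was not divided out. Genes counted as called when edgeR's quasi-likelihood test gave p under 0.05 after Benjamini-Hochberg adjustment over all genes and the difference was at least 2-fold. Adjusted p-values are from that test. Library totals ran from 51692772 to 82364863 counts. WT rapamycin replicates 2 and 3 stood apart: one was the smallest library and had 12.9% of its counts in a single gene, the other had the lowest TMM factor, 0.824, and the correlations of log levels among the WT rapamycin libraries were 0.952 to 0.981, against at least 0.989 within each other group. The row of *apc* itself (ENSDARG00000058868) was read beside the genotype labels. It averaged 90.6 ± 15.4 CPM in mutants and 127 ± 0.58 CPM in WT given vehicle (SD, n = 3 each). That is −0.49 on the log2 scale (edgeR adjusted p = 0.0153). Of all genes tested there, 13.6% were lower at an adjusted p under 0.05, so this difference alone does not establish the labels. All 9 lens, liver and erythrocyte markers that had a matched row were detected, as the label of whole embryo requires. Other names of that list had no matched row.

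In embryos given vehicle, 8 of the 10 genes were called lower in mutants and none was called higher. Over all 22335 genes tested in that comparison, 3.9% were called lower. The same 8 genes are in the study's own list of changed genes, which came from the same comparison. The 10 were also chosen with earlier results of these data known, so their excess over that share is not independent support. The largest differences were those of *matn1*, which fell 101-fold, and *acana*, which fell 18.7-fold. *matn3b*, *matn4*, *acanb*, *cnmd*, *epyc* and *matn3a* fell between 2.13-fold and 3.8-fold. *snorc* was 1.46-fold lower, under the 2-fold minimum, and *ucmab* was at about the same level in both genotypes. With no fold minimum, 9 of the 10 genes passed at an adjusted p under 0.05 in the lower direction, against 13.6% of all genes. In those same 9, every mutant library was below every WT library, which held for 21.7% of all genes. The median log2 fold change of the 10 was −1.73, and that of all genes tested was −0.0043. In such bulk RNA, fewer cells of a type and less RNA per cell cannot be told apart.

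**Figure D1:**
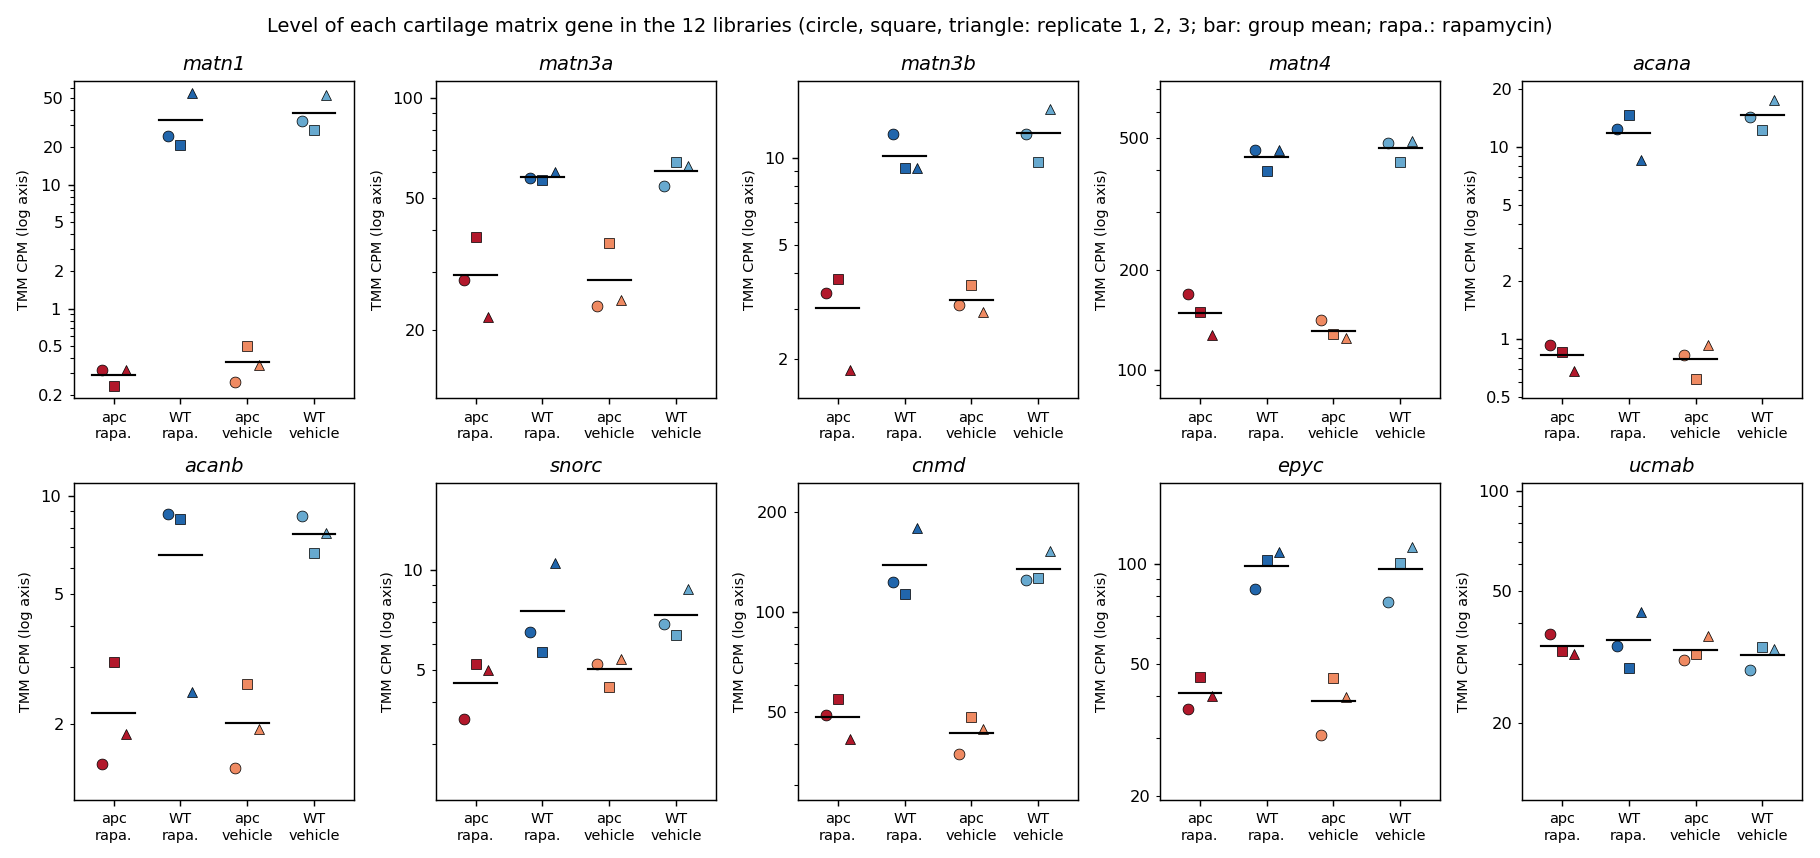
Level of each of the 10 genes in TMM-scaled CPM on log axes, with 1 point for each of the 12 libraries and a bar at the mean of the 3 libraries of a group. Mutant libraries (red and orange) are far below WT libraries (blue) for *matn1* and *acana*, and the points of both genotypes mix for *ucmab*.

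*matn1* encodes matrilin 1, also called cartilage matrix protein. It had 0.256, 0.495 and 0.353 CPM in mutants given vehicle, against 32.7, 27.4 and 52.9 CPM in WT given vehicle. These levels rest on 18, 40 and 27 counts in the mutant libraries, against 2637, 2158 and 4298 counts in WT libraries. The groups are separated by a wide gap, and the mutant mean was 0.977% of the WT mean. The log2 fold change was −6.66 ± 0.33 (SE; edgeR adjusted p = 8.08e-06), the lowest value among the 22335 genes tested. With rapamycin the levels were 0.318, 0.237 and 0.321 CPM in mutants, against 24.5, 21.0 and 54.7 CPM in WT, a log2 fold change of −6.81 ± 0.45 (adjusted p by edgeR = 2.23e-06). WT replicate 3 was the highest library in both treatments, and the coefficient of variation among WT libraries was 55.6% with rapamycin and 35.8% with vehicle.

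*matn4* encodes matrilin 4, which in mouse is made in cartilage and in many other tissues. Mutants given vehicle had 142, 128 and 125 CPM, against 484, 424 and 490 CPM in WT given vehicle. No library of one genotype reached the range of the other, and the mutant libraries differed little among themselves (coefficient of variation 6.76%). The log2 fold change was −1.83 ± 0.094 (SE; edgeR adjusted p = 9.19e-06). With rapamycin *matn4* had 170, 149 and 127 CPM in mutants and 459, 398 and 460 CPM in WT, and the log2 fold change was −1.55 ± 0.13 (edgeR adjusted p = 7.54e-06).

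The paralogs *matn3a* and *matn3b* both encode matrilin 3, whose human gene is mutated in a form of multiple epiphyseal dysplasia. *matn3b* had 3.08, 3.62 and 2.93 CPM in mutants given vehicle, against 12.1, 9.69 and 14.8 CPM in WT given vehicle. With rapamycin it had 3.41, 3.81 and 1.83 CPM in mutants and 12.1, 9.21 and 9.22 CPM in WT. The genotypes were separate in both treatments, with log2 fold changes of −1.93 ± 0.17 in vehicle (SE; edgeR adjusted p = 9.07e-05) and −1.75 ± 0.26 in rapamycin (edgeR adjusted p = 0.000537).

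*matn3a* was lower by less than *matn3b*. Mutants given vehicle had 23.7, 36.6 and 24.7 CPM, against 54.5, 64.4 and 62.5 CPM in WT given vehicle, and the log2 fold change was −1.09 ± 0.16 (SE; edgeR adjusted p = 0.0013). Mutant replicate 2 stood above the other mutant libraries but below every WT library. Leaving out mutant vehicle replicate 1 gave a log2 fold change of −0.98, under the 2-fold minimum. With rapamycin mutants had 28.3, 38.2 and 21.9 CPM and WT had 57.4, 56.7 and 59.9 CPM. That log2 fold change was −0.97 ± 0.20 (edgeR adjusted p = 0.00531), which is just under 2-fold and was not called. It was −1.004 with the replicate number as a block (edgeR adjusted p = 0.00104) and −1.20 without mutant rapamycin replicate 2 (the mutant library with the highest level), and was called in both.

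The 4 matrilins together had 163 ± 9.26 CPM in mutants and 577 ± 47.8 CPM in WT given vehicle, and 182 ± 26.5 CPM in mutants and 541 ± 50.8 CPM in WT given rapamycin (SD, n = 3 each). The sum does not depend on how reads were divided between related genes. Most of it is *matn4*, which alone averaged 131 CPM in mutants and 466 CPM in WT given vehicle. The sum of the 4 thus mainly follows *matn4*. For the pair *matn3a* and *matn3b* alone, the sum was 31.6 ± 7.53 CPM in mutants and 72.7 ± 5.54 CPM in WT given vehicle. Both sums were lower in every mutant library than in any WT library of the same treatment.

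Aggrecan, the main proteoglycan core protein of cartilage, has the paralogs *acana* and *acanb* in zebrafish. *acana* had 0.824, 0.618 and 0.929 CPM in mutants given vehicle (50 to 71 counts), against 14.3, 12.3 and 17.6 CPM in WT given vehicle (967 to 1433 counts). The mutant mean was 5.37% of the WT mean. The log2 fold change was −4.22 ± 0.20 (SE; edgeR adjusted p = 8.03e-06). With rapamycin *acana* had 0.929, 0.861 and 0.683 CPM in mutants and 12.3, 14.7 and 8.58 CPM in WT. The genotypes were again far apart, with a log2 fold change of −3.84 ± 0.26 (adjusted p by edgeR = 2.23e-06).

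*acanb* had 1.46, 2.66 and 1.92 CPM in mutants given vehicle, against 8.67, 6.68 and 7.68 CPM in WT given vehicle. The groups did not overlap, and the log2 fold change was −1.93 ± 0.21 (SE; edgeR adjusted p = 0.000287). With rapamycin it had 1.5, 3.10 and 1.86 CPM in mutants, against 8.80, 8.48 and 2.5 CPM in WT. Here the genotypes overlapped, because WT rapamycin replicate 3, one of the libraries that stood apart, lay within the mutant range with 145 counts. The log2 fold change was −1.62 ± 0.43 (edgeR adjusted p = 0.0204) with all libraries and −2.0 (adjusted p = 0.000394) without that library. The call was lost without mutant rapamycin replicate 1 (−1.42, edgeR adjusted p = 0.088), without mutant rapamycin replicate 3 (−1.53, adjusted p = 0.08) and without WT rapamycin replicate 1 (−1.36, adjusted p = 0.0725).

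Summed over both aggrecans, the level was 2.80 ± 0.50 CPM in mutants and 22.4 ± 3.22 CPM in WT given vehicle, and 2.98 ± 0.85 CPM in mutants and 18.5 ± 6.46 CPM in WT given rapamycin (SD, n = 3 each). The summed level was separate between genotypes in both treatments, also with WT rapamycin replicate 3 included.

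The balance between related genes was compared within each library. The ratio of *acana* to *acanb* counts within a library was 0.563, 0.233 and 0.483 in mutants given vehicle, against 1.65, 1.84 and 2.30 in WT given vehicle. With rapamycin it was 0.619, 0.278 and 0.367 in mutants, against 1.40, 1.73 and 3.43 in WT. Every mutant library had more counts for *acanb* than for *acana*, and every WT library had more for *acana*. A change of such a ratio depends neither on gene length nor on the scaling of libraries. The log2 ratio was lower in mutants by 2.26 in vehicle and by 2.35 in rapamycin on average. For *matn3b* over *matn3a* the mean log2 ratio was −3.12 ± 0.20 in mutants and −2.33 ± 0.35 in WT given vehicle, and −3.32 ± 0.26 in mutants and −2.52 ± 0.25 in WT given rapamycin (SD, n = 3 each). For *matn1* over *matn4* it was −8.53 ± 0.55 in mutants and −3.68 ± 0.41 in WT given vehicle, and −9.00 ± 0.34 in mutants and −3.85 ± 0.67 in WT given rapamycin. In all 6 comparisons no mutant library reached the WT range. The numerator of each ratio was the gene that fell more in both treatments. The direction of these differences thus follows from the fold changes above. The two-sided exact permutation test gave p = 0.1 in each, also after Benjamini-Hochberg adjustment over the 6, which is the smallest p that 3 libraries against 3 allow.

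**Figure D2:**
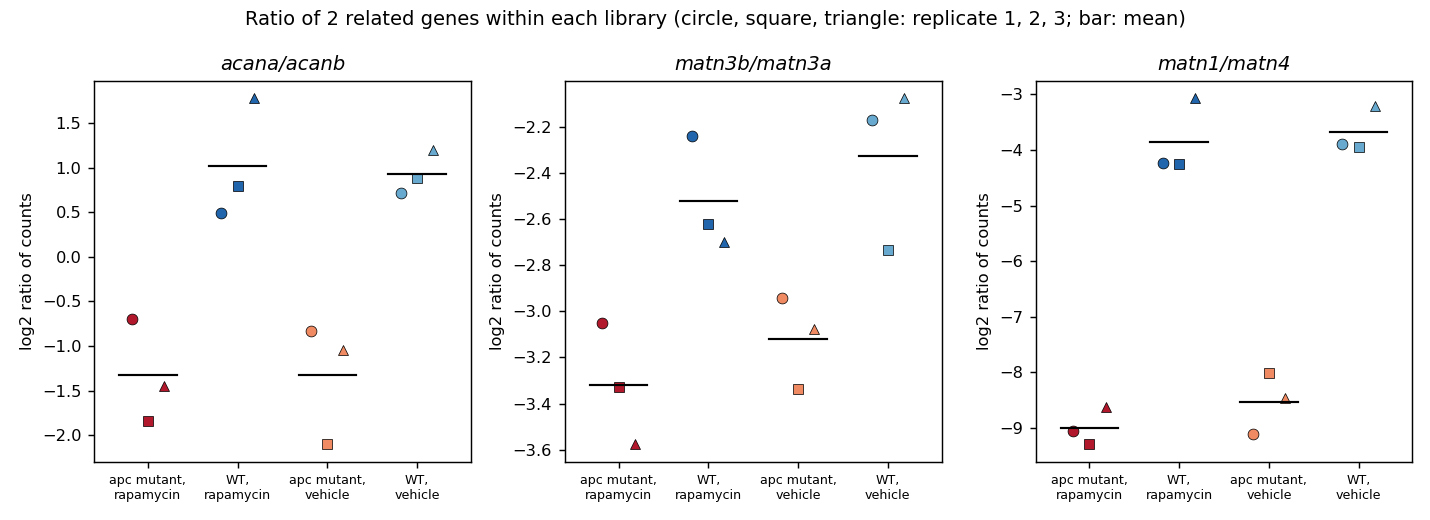
Log2 ratio of the counts of 2 related genes within each library, for *acana* over *acanb*, *matn3b* over *matn3a* and *matn1* over *matn4*, with 1 point for each library and a bar at the mean of each group of 3. Mutant libraries lie below WT libraries in every panel and in both treatments, and the *acana* to *acanb* ratio is above 0 on this scale only in WT.

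*epyc* encodes epiphycan, a small leucine-rich proteoglycan of growth plate cartilage in mammals. It had 30.5, 45.4 and 40.0 CPM in mutants given vehicle, against 77.1, 101 and 113 CPM in WT given vehicle. With rapamycin it had 36.8, 45.8 and 40.1 CPM in mutants and 84.1, 103 and 109 CPM in WT. Mutant libraries were below WT libraries throughout, with log2 fold changes of −1.33 ± 0.17 in vehicle (SE; edgeR adjusted p = 0.000672) and −1.26 ± 0.18 in rapamycin (edgeR adjusted p = 0.000361). WT replicate 1 was the lowest WT library in both treatments.

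*cnmd* encodes chondromodulin, a membrane-anchored glycoprotein of cartilage that inhibits the growth of blood vessels in mammals. Its levels were 37.2, 48.2 and 44.5 CPM in mutants given vehicle, against 125, 126 and 152 CPM in WT given vehicle. In rapamycin they were 48.9, 54.7 and 41.4 CPM in mutants and 123, 113 and 179 CPM in WT. The genotypes were separate in both treatments, with log2 fold changes of −1.64 ± 0.12 in vehicle (SE; edgeR adjusted p = 3.49e-05) and −1.5 ± 0.17 in rapamycin (edgeR adjusted p = 8.98e-05). Its relative *tnmd*, which encodes the tendon protein tenomodulin, was lower in mutants given vehicle too, where it fell by 1.58 on the log2 scale (edgeR adjusted p = 0.0013).

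*snorc* encodes a small transmembrane chondroitin sulfate proteoglycan described in mouse cartilage. It had 5.23, 4.46 and 5.41 CPM in mutants given vehicle, against 6.88, 6.37 and 8.78 CPM in WT given vehicle. In rapamycin it had 3.56, 5.21 and 4.99 CPM in mutants and 6.53, 5.65 and 10.5 CPM in WT. The genotypes did not overlap in either treatment, but the gaps were small. The log2 fold change in vehicle was −0.55 ± 0.15 (SE; edgeR adjusted p = 0.0264). That adjusted p was 0.133 with all 12 libraries in one model. It was 0.056 without mutant vehicle replicate 1, 0.0605 without mutant vehicle replicate 2, 0.0516 without WT vehicle replicate 1 and 0.107 without WT vehicle replicate 3. It stayed under 0.05 without mutant vehicle replicate 3 (0.0436) and without WT vehicle replicate 2 (0.0294). The same held for the replicate number as a block (0.0052), RLE factors (0.0263), no filter (0.0264) and DESeq2's Wald test (0.00702). In rapamycin the log2 fold change was −0.71 ± 0.23 (edgeR adjusted p = 0.0508), and −0.41 (adjusted p = 0.128) without WT rapamycin replicate 3. With the replicate number as a block the adjusted p in rapamycin was 0.022 by edgeR. It was 0.0215 by edgeR without WT rapamycin replicate 2 and 0.0216 by DESeq2's Wald test.

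*ucmab* encodes a paralog of UCMA, a secreted protein of cartilage that carries vitamin K-dependent modifications in mammals. Its levels were 30.9, 32.2 and 36.4 CPM in mutants given vehicle, against 28.8, 33.8 and 33.4 CPM in WT given vehicle. In rapamycin they were 37.0, 32.9 and 32.3 CPM in mutants and 34.1, 29.3 and 43.1 CPM in WT. The libraries of both genotypes mixed. The log2 fold change was 0.05 in vehicle, with a 95% interval from −0.17 to 0.28 (edgeR adjusted p = 0.748), and −0.05 in rapamycin, with an interval from −0.34 to 0.24 (adjusted p = 0.845). The other paralog, *ucmaa*, was scarce, with 4 counts in each mutant library against 25 to 32 counts in WT libraries given vehicle, a log2 fold change of −2.67 ± 0.40 (adjusted p by edgeR = 0.00146). In rapamycin *ucmaa* had 1 to 3 counts in mutant libraries and 14 to 42 counts in WT libraries.

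With rapamycin as a whole, 7 of the 10 genes were called lower in mutants and none was called higher, where 3.8% of the 22841 genes tested were called lower. For 8 of the 10, every mutant library was below every WT library, which held for 13.8% of all genes. The median log2 fold change was −1.53, against −0.028 over all genes tested. The genes not called were *matn3a*, *snorc* and *ucmab*. These libraries are separate from those of the vehicle comparison, but the same replicate numbers, taken to mark clutches, run through both. Without WT rapamycin replicates 2 and 3, edgeR also called 7, but that refit leaves 1 WT rapamycin library, assumed to vary like the other groups.

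**Figure D3:**
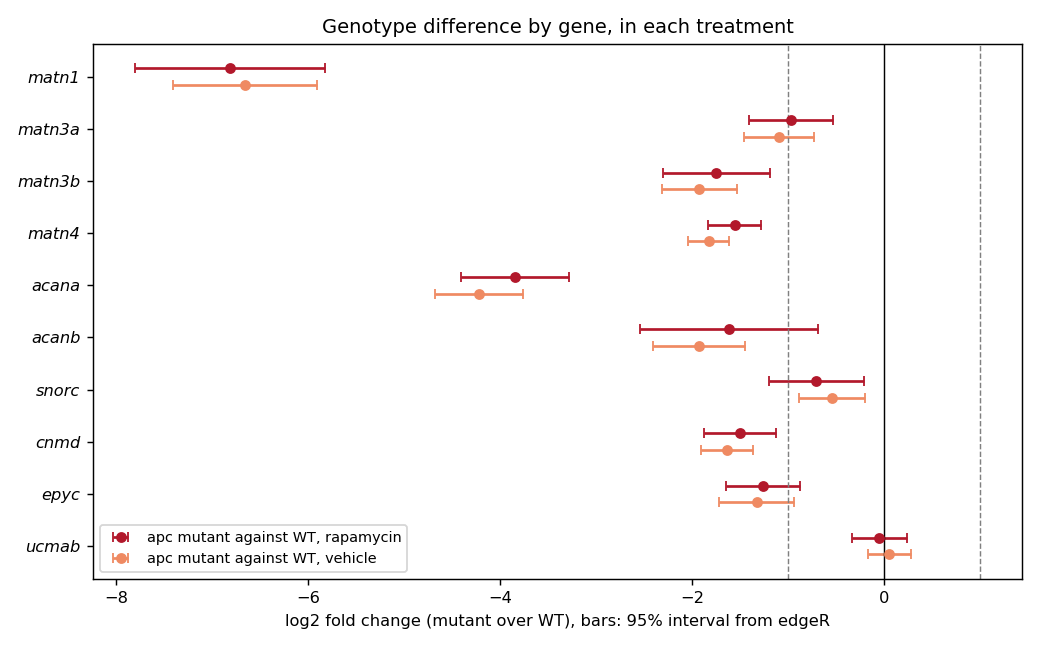
Log2 fold change of mutant over WT for each gene, in rapamycin (upper point of each pair) and in vehicle (lower point), with 95% intervals from edgeR and dashed lines at a 2-fold difference. The intervals of *matn1* and *acana* lie far to the left, that of *ucmab* includes 0 in both treatments, and the 2 treatments overlap for every gene.

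Rapamycin itself was compared with vehicle within each genotype, since the drug inhibits mTORC1. None of the 10 genes was called in mutants or in WT. Over all 22841 genes, 0% were called in mutants, 0% in WT and 0% for the interaction of genotype and rapamycin. No readout of mTORC1 activity is given here, so whether the drug acted in these embryos was not tested. At an unadjusted p under 0.05 there were 150 genes in mutants, 1394 in WT and 364 for the interaction by edgeR, none of the 10 among them, and DESeq2 called 0, 2 and 2 genes, also none of the 10. Rapamycin and vehicle libraries overlapped for every one of the 10 genes in both genotypes. The log2 fold changes of rapamycin over vehicle ran from −0.34 (*matn1*) to 0.18 (*matn4*) in mutants and from −0.31 (*acana*) to 0.14 (*ucmab*) in WT.

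The intervals show what the model of all 12 libraries could resolve. Its spread is shared by the 4 groups and includes the WT rapamycin libraries that stood apart. It leaves out the replicate number, so variation that same-numbered libraries share stays in its spread. Intervals with the replicate number as a block are not given here. The common biological coefficient of variation was 22.4% in that model, against 15% in the fit of the vehicle libraries. In mutants 0.657% of genes had an unadjusted p under 0.05 by edgeR, fewer than evenly spread p-values would give. How wide the intervals would be from the mutant libraries alone was not tested. For *matn4* in mutants the 95% interval of rapamycin over vehicle was −0.09 to 0.45 on the log2 scale, and for *matn1* in mutants, with its few counts, it was −1.42 to 0.73. For *acanb* it was −0.83 to 1.02 in mutants and −1.1 to 0.68 in WT. For these low genes a 2-fold change in at least one direction lay inside each interval. The interaction ranged from −0.16 (*snorc*) to 0.38 (*acana*, 95% interval −0.36 to 1.12). For *ucmab* the interval of the interaction was −0.51 to 0.31.

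For part of the genes the same replicate number was highest in both treatments. Mutant replicate 2 was the highest of the 3 mutant libraries for 6 of the 10 genes in rapamycin and for 6 in vehicle, and for 5 in both (*matn3a*, *matn3b*, *acanb*, *cnmd* and *epyc*). WT replicate 3 was the highest WT library for 7 genes in rapamycin and for 7 in vehicle, and for 5 in both (*matn1*, *matn4*, *snorc*, *cnmd* and *epyc*). No other replicate was counted, the number differs between the genotypes, and the share over all genes was not computed. Mutant and WT libraries of a treatment still did not mix, apart from *acanb* in rapamycin and *ucmab*.

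**Figure D4:**
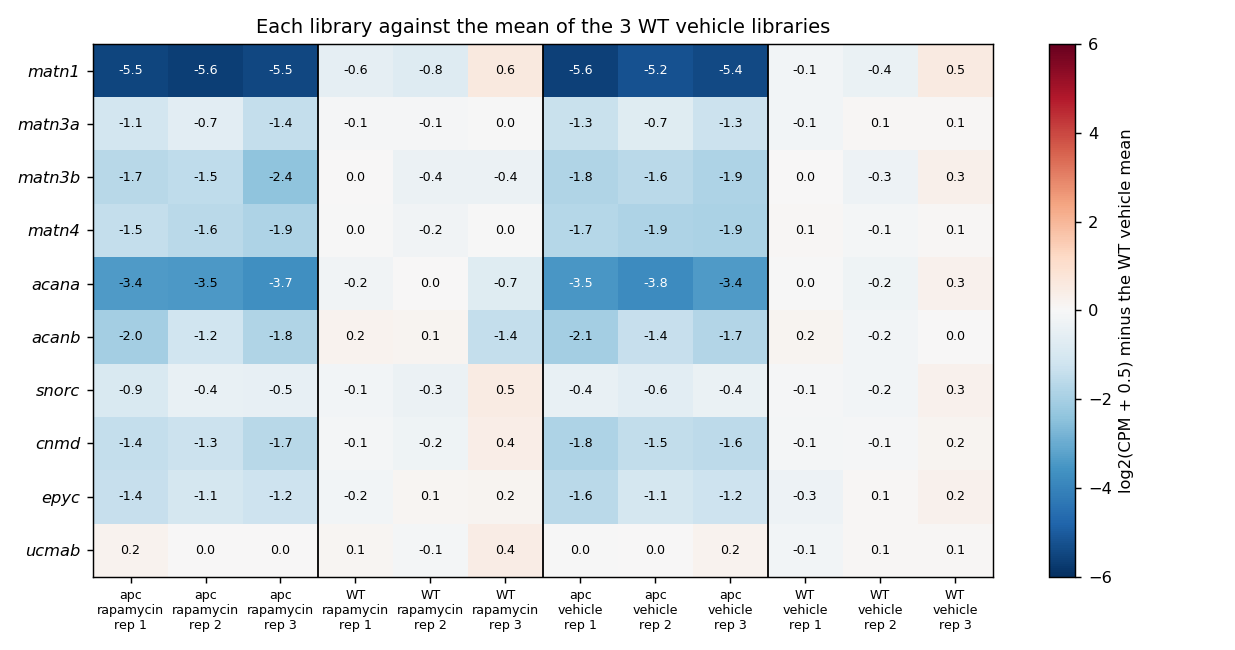
Difference of each library from the mean of the 3 WT vehicle libraries, as log2(CPM + 0.5), for the 10 genes (rows) in mutant and WT libraries given rapamycin and vehicle (columns, 3 replicates each). The added 0.5 makes the *matn1* and *acana* differences smaller than the fitted fold changes, all 6 mutant columns are blue for these genes, and *acanb* in WT rapamycin replicate 3 has a value like those of the mutants.

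Other genes of cartilage matrix moved in both directions. Of 17 other cartilage matrix genes tested in vehicle, 3 were called higher and 4 lower in mutants, with a median log2 fold change of 0.0025. *prelp*, which encodes a leucine-rich matrix protein, fell by 2.54 on the log2 scale, and *wisp3*, of the CCN family, fell by 1.97 (edgeR adjusted p = 0.000247 and 0.000185). *hapln3*, which encodes a link protein of the kind that joins aggrecan to hyaluronan, rose to 71.4 ± 7.13 CPM in mutants, against 13.3 ± 0.61 CPM in WT (SD, n = 3 each), or 2.42 on the log2 scale (edgeR adjusted p = 8.01e-06). *cilp2*, which encodes a protein of the cartilage intermediate layer, rose by 3.09 on the log2 scale (edgeR adjusted p = 1.77e-05). The main link protein gene *hapln1a* had 72.6 ± 5.20 CPM in mutants and 69.6 ± 2.78 CPM in WT, and its log2 fold change was 0.06 (edgeR adjusted p = 0.654). The name of its paralog *hapln1b* was not matched to a row. A row named HAPLN1 (ENSDARG00000068516), not among these 17 genes, had a log2 fold change of 0.39, under the 2-fold minimum (edgeR adjusted p = 0.0379). In rapamycin 2 of these 17 genes were called higher and 4 lower.

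Among 13 other large hyaluronan-binding proteoglycans and small leucine-rich proteoglycans, 2 were called higher and 3 lower in mutants given vehicle, with a median log2 fold change of −0.28. *kera* and *lum*, which encode the corneal proteoglycans keratocan and lumican, fell by 4.41 and by 2.04 on the log2 scale (edgeR adjusted p = 9.88e-05 and 4.32e-05). *vcanb*, one of the versican paralogs, fell by 1.1 (edgeR adjusted p = 0.000218), and the other, *vcana*, had a log2 fold change of −0.26 (adjusted p = 0.239). *optc* (opticin) rose by 2.75 and *bgnb* (biglycan) rose by 1.17 (edgeR adjusted p = 1.69e-05 and 0.000694). Of 26 genes for chondroitin sulfate and hyaluronan synthesis, 1 was called higher and 2 lower. These included *has2*, a hyaluronan synthase, which rose by 2.0, and CSGALNACT1 (ENSDARG00000040535), which starts chondroitin sulfate chains and fell by 1.5 on the log2 scale (edgeR adjusted p = 0.000174 and 6.40e-05).

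Of 17 regulators of chondrocytes tested in vehicle, 1 was called higher and 1 lower in mutants, where 905 were called higher and 870 lower of all 22335 genes tested. Their median log2 fold change was −0.15 (lowest −2.15, highest 1.12), against −0.0043 over all genes. With no fold minimum, 2 of the 17 were higher and 4 lower at an edgeR adjusted p under 0.05. By that measure 2 were higher and 1 lower in rapamycin. The regulators that were higher in vehicle are not named here, so the genes below show only the lower side of the list. In rapamycin the median of these regulators had the opposite sign, 0.21, against −0.028 over all genes. *barx1*, a homeobox gene of the arch mesenchyme, fell by 2.15 on the log2 scale (edgeR adjusted p = 1.52e-05). SOX9, the main regulator of cartilage matrix genes, has a pair of rows: ENSDARG00000003293 was at −0.70 on the log2 scale (edgeR adjusted p = 0.00654) and ENSDARG00000043923 at −0.35 (adjusted p = 0.242). SOX5 and SOX6, its partners in mammals and named here after their values were seen, had log2 fold changes of −0.85 and −0.93 (edgeR adjusted p = 0.00832 and 0.000596), also under 2-fold. In rapamycin the same rows had −0.39 and 0.21 for SOX9, −0.73 for SOX5 and −0.73 for SOX6, with adjusted p of 0.53, 0.598, 0.274 and 0.107 by edgeR.

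Markers of other tissues were read beside the matrix genes, since in whole embryos some of the 10 can come from other cells. Of 13 markers of the arch ectomesenchyme, the tissue from which head cartilage forms, 1 was called higher and 1 lower in mutants given vehicle, and the median difference was 0.29 on the log2 scale (lowest −3.29, highest 1.15). *gsc* fell by 3.29, while *twist1b* rose by 1.15 (edgeR adjusted p = 1.07e-05 and 0.000333). With no fold minimum, 6 of the 13 were higher and 3 lower at an edgeR adjusted p under 0.05. In rapamycin 5 were higher and 1 lower by that measure. Over all 22335 genes in vehicle, 3305 were higher and 3028 lower. Of 10 otic vesicle markers, 1 was called higher and 5 lower, with a median log2 fold change of −1.18. *tectb* and *tecta*, which encode tectorins, fell by 3.92 and by 1.37, *otomp*, an otolith matrix gene, fell by 2.97, and *oc90*, another, rose by 3.62 (edgeR adjusted p = 8.01e-06, 0.00616, 0.000156 and 9.27e-05). Of 8 notochord and sheath markers, 1 was called higher (*noto*, 2.78) and 3 lower (*emilin3a*, −5.14, *entpd5a*, −2.73, and *col8a1a*, −1.57). The median log2 fold change of these 8 was 0.0024. The actinodin genes *and1*, *and2* and *and3* of the fin fold fell by 1.96, by 2.20 and by 2.5. They were the 3 called lower among 4 fin fold markers tested, and the other marker was at 0.13. The median of −2.08 over the 4 is thus mainly that of the actinodins. Several other fin fold names had no usable row. No marker was called among 9 of neurons and 8 of skeletal muscle, though 6 neuron and 2 muscle markers were lower at an adjusted p under 0.05. Of 9 erythrocyte, liver and lens markers 2 were called lower, *fabp10a* (−1.78) and *crygm2d7* (−1.09). The part of these tissues in the levels of the 10 genes was not tested.

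**Figure D5:**
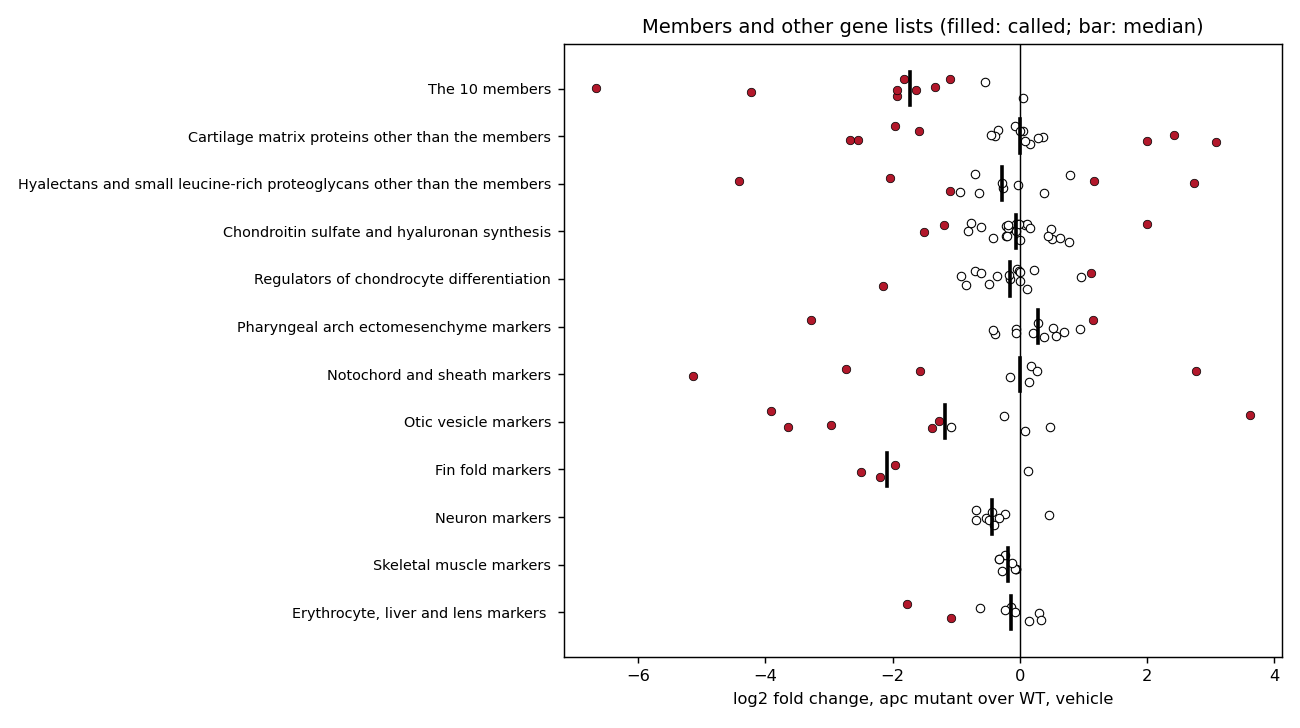
Log2 fold change of mutant over WT in vehicle for the 10 genes (top line) and for each other list, with 1 point for each gene, filled where it was called, and a bar at the median. The 10 genes have a median of −1.73, and the other cartilage matrix genes have one near 0 with called genes on both sides. The median is −2.08 for the 4 fin fold markers, of which 3 are actinodins, and −1.18 for the otic vesicle markers. That of the notochord and sheath markers is 0.0024.

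The genes most like *matn1* and *acana* across the 12 libraries were found by Pearson's correlation of log2(CPM + 0.5) among the 17434 genes that averaged 100 counts or more. Those most like *matn1* were *spon2b* (r = 0.994), *tnxba* (0.994), *rlbp1b* (0.993), *si:ch211-133n4.6* (0.993) and *tectb* (0.992). Those most like *acana* were *col8a2* (0.996), *aglb* (0.993), *klc3* (0.991), BRD8 (ENSDARG00000055999, 0.990) and *radil* (0.989). Libraries of the same replicate number, taken to mark a clutch, are not independent. The labels do not say what the number marks. The libraries also fall into a mutant and a WT cluster, so any gene that differs strongly between genotypes has a high correlation here.

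The nearest protein-coding genes on either side were looked up in RefSeq's annotation of GRCz12tu, a later assembly than the one the counts used. Of the 20 neighbours 14 were tested in vehicle, and 4 were called, 3 of them higher in mutants. Of all 22335 genes tested there, 905 were called higher and 870 lower. *hapln3* lies next to *acanb*, so neighbours there differed in opposite directions (2.42 and −1.93 on the log2 scale). *kera* lies next to *epyc*, and both were lower (−4.41 and −1.33). The other called neighbours, named after their values were seen, were *sesn2* beside *matn1* (1.21) and *hal* beside *ucmab* (1.68).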

How the data were processed

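Counts came from poly-A selected, stranded libraries of 12 samples in 4 groups. The values that the authors deposited are estimated counts by Ensembl gene, in whole numbers and with no scaling between libraries. The submitters' processing notes name Salmon and the build GRCz10, and the methods of the study name STAR for mapping. The versions are not given in the sources used here. How reads were divided between paralogs could change the levels of *acana* and *acanb* or *matn3a* and *matn3b*, so sums are given beside them. Names came from the study's list of changed genes, which covers 1743 rows, and otherwise from Ensembl names.

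The fits used edgeR 4.0.16 under R 4.3.3, with TMM factors, filterByExpr at a minimum count of 10, quasi-likelihood tests and p-values adjusted by Benjamini-Hochberg. Vehicle libraries were fitted on their own (6 libraries, 22335 genes), and the other comparisons in a model of all 12 (22841 genes). Levels in CPM used TMM factors over all rows (0.824 to 1.08), and the fits used factors over the genes that passed the filter (0.849 to 1.08 in the model of 12). Rapamycin against vehicle and the interaction had no fold minimum. Standard errors are those implied by the tests, and p-values measure the spread between pools of embryos. The procedure was also run on simulated data, with an outcome that is not given here.

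Replicate numbers were taken to pair the samples, because, once group means were removed, each of the 18 same-numbered pairs correlated above 0.1 (mean 0.363, lowest 0.149). The mean over the 36 other pairs was −0.181. Removing group means largely fixes that value once the first is known, so it is no separate evidence. The main fits and the permutation tests did not use this pairing, which entered only the fit with a replicate block. Alternatives were DESeq2 1.42.0, RLE factors, no filter, the replicate number as a block, one model for vehicle, no minimum fold, and leaving out each library. Leaving out WT rapamycin replicates 2 and 3 together was added after the data were seen.

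The 10 genes and the other lists were chosen with earlier results of these data known. Named genes are the 10, close relatives of them, the SOX9 pair, *apc*, the up to 4 largest called differences with a mean of at least 100 counts in each list, and the 5 genes most like *matn1* and *acana*. SOX5, SOX6, *sesn2* and *hal* are outside this rule and were named after their values were seen. Of 157 list names, 138 were matched to rows. One marker of arch ectomesenchyme is not reported here and was left out of its list after the results were seen.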

Additional observations from a re-analysis of the deposited data

How the results depend on the processing

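*matn1*, *matn3b*, *matn4*, *acana*, *cnmd* and *epyc* were called lower in mutants under every alternative in both treatments, not counting the refit without WT rapamycin replicates 2 and 3, *acanb* under every one in vehicle, and no alternative called one of the 10 genes for rapamycin or the interaction. That refit leaves 1 WT rapamycin library, assumed to vary like the other groups, so its calls are no check of stability. Leaving out 1 library gave 7 to 8 genes called in vehicle and 6 to 8 in rapamycin, with the exceptions (*matn3a* and *acanb*) described above. The replicate block changed no other call than that of *matn3a* in rapamycin (log2 fold change −1.004) and the adjusted p of *snorc* there, and gave 8 genes called in each treatment.

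With no fold minimum, 6333 genes of the whole table passed in vehicle and 3972 in rapamycin, against 1775 and 1746 with it. For rapamycin against vehicle in WT, DESeq2 called 2 genes, and edgeR called 1 without WT rapamycin replicates 2 and 3, with 1 library left in that group. For the interaction DESeq2 called 2 genes, and edgeR called 1 without those libraries. The cause was not tested.

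Many differences near 0 that were never called changed sign. The widest ranges with 1 library left out were those of *matn1* for rapamycin over vehicle in WT (−0.72 to 0.13) and for the interaction (−0.48 to 0.38), and the interaction of *acanb* ranged from −0.082 to 0.57. Leaving out 1 library gave *ucmab* log2 fold changes of −0.021 to 0.10 between genotypes in vehicle and −0.19 to 0.10 in rapamycin, and 0.0026 in rapamycin without WT rapamycin replicates 2 and 3. For rapamycin over vehicle the range was −0.26 to 0.36 for *acanb* in mutants, −0.48 to 0.18 for *acanb* in WT and −0.0070 to 0.28 for *ucmab* in WT, and *acanb* in WT was at 0.20 without WT rapamycin replicates 2 and 3. The interaction ranged from −0.35 to 0.13 for *snorc* and from −0.24 to 0.045 for *ucmab*, and that of *snorc* was 0.037 without those libraries. Over all 10 genes and alternatives, 14 of 170 refitted values changed sign for rapamycin in mutants, 16 of 170 in WT and 18 of 170 for the interaction. Depth limits the mutant values of *matn1* most, with 18 to 40 counts.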
